A study of Mus musculus with 7 samples.

Results

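Spp1, the gene for the secreted protein osteopontin, was described together with 5 genes for its receptors: Cd44, Itgav, Itgb3, Itgb1 and Itgb5. These 6 genes were taken by symbol from the 33696 genes of the feature list, and each had at least 1 unique molecular identifier (UMI) in every cell class described here. The cells came from 7 subcutaneous tumors of the mouse cell line JW23.3, which models malignant peripheral nerve sheath tumors (MPNST) and lacks both Nf1 and Trp53, grown in female C57/B6 wildtype mice that were 5 to 6 weeks old when the cells were implanted. The irradiated group held 4 tumors that received 5 daily fractions of 2 Gy to the tumor region, and the control group held 3 tumors that received none. All tumors were taken on day 21, dissociated with papain and profiled with a 3′ droplet assay, 1 library per tumor. The model is 1 cell line in hosts of 1 sex, so the spread between tumors is that of allografts of the same line.

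Osteopontin is an acidic, phosphorylated protein of bone and of the matrix of inflamed and tumor tissue, made by osteoblasts, osteoclasts, many macrophages and some tumor cells. It binds integrins, which are pairs of an alpha and a beta chain, through an arginine-glycine-aspartate (RGD) sequence. Its RGD receptors include the alpha v chain (Itgav) paired with beta 3 (Itgb3), beta 1 (Itgb1) or beta 5 (Itgb5), and it has also been described as a ligand of CD44, the main receptor for hyaluronan. Spp1 is a common marker of a macrophage state in tumors, and in bone it is a target of RUNX2.

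The RGD sequence is shown because it is the part of osteopontin that the integrins of this gene set recognize. It was found 1 time in the reading frame, at codons 144 to 146 of 882 coding bases, in exon 6 of 7 of the transcript Spp1-201 (GENCODE M21, GRCm38, plus strand, chr5:104439457-104439516). The capitals mark its 3 codons.
Spp1 coding stretch: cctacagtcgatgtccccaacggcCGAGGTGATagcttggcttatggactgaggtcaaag

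The promoter of Spp1 is shown because several factors known to act on it were among the genes measured. It is the RefSeq window of 250 bases before and 50 bases after the start (GRCm38.p6, plus strand, chr5:104434861-104435160). The promoter set held 2 entries for Spp1, and only the first by position is shown and was searched for motifs. The capitals mark a RUNX motif and a CCAAT box, both found on the minus strand.
Spp1 promoter: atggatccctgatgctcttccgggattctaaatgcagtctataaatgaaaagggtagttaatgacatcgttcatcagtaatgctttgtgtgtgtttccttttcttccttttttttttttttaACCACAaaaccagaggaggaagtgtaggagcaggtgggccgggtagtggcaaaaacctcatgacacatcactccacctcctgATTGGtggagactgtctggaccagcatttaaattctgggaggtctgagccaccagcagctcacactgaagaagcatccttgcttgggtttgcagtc
Both strands were searched. The RUNX motif TGTGGT matched once, on the minus strand, 123 to 128 bases before the start, and is a motif held by 16.8% of 32851 promoters of the same length. The CCAAT motif lay 42 to 46 bases before the start and was held by 37.4% of promoters. A TATAAA match lay 206 to 211 bases before the start, a motif in 13.6% of promoters. The ETS core GGAAG matched at 3 places and was held by 71.4% of promoters, and the E box CANNTG matched at 1 place and was held by 72.3%. Neither the AP-1 motif TGANTCA (7.81% of promoters) nor the HIF motif ACGTG (19.6%) was present in these letters. In the files' build, which the submitters' processing notes give as mm10, Spp1 lies at chr5:104435118-104441050 (plus strand), Cd44 at chr2:102811141-102901665 (minus strand) and Itgav at chr2:83724397-83806916 (plus strand). Itgb3 lies at chr11:104608000-104670476, Itgb1 at chr8:128685654-128733200 and Itgb5 at chr16:33829665-33949338, all on the plus strand. These are the GENCODE M21 positions of the gene identifiers in the feature list.

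The libraries held 39537 cells and 646559899 UMIs, with medians of 6058.5 to 17930 UMIs per cell, and 34296 cells were retained. Cells were gated by marker genes into 14692 MPNST-like tumor cells, 11611 macrophage-like, 278 fibroblast-like, 489 endothelial-like and 201 pericyte-like cells. The 1365 T/NK-like and 166 dendritic-like cells served as further reference, and 5494 cells stayed ungated. The summed macrophage markers reached 27930 to 34240 CPM (UMIs per 1000000 UMIs of the class) in macrophage-like cells and 58.4 to 126.2 CPM in MPNST-like cells. Xist, which the female hosts but not the male tumor line express, was found in 86.7% to 94.06% of macrophage-like cells and was required to be absent from MPNST-like cells. The Y-linked genes Ddx3y, Eif2s3y, Kdm5d and Uty together reached 0.164 to 0.876 CPM in MPNST-like and 0.0808 to 1.009 CPM in macrophage-like cells. They did not set the tumor cells apart from host cells. Pericyte-like cells of irradiated tumor 4 numbered 12, and this tumor was left out of comparisons of that class. By cell number, depth and mitochondrial share, irradiated 1 and controls 2 and 3 lay closest together (called set 1 here), and the remaining 4 libraries formed set 2, so both sets contain both groups. In bulk sums of this kind, fewer cells with the transcript and less transcript per cell cannot be told apart, and shares of positive cells are therefore given as well.

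Spp1 was highest in the tumor cells. In MPNST-like cells it stood at 4220, 3674, 5305 and 2970 CPM in irradiated tumors 1 to 4 and at 5108, 5251 and 3943 CPM in controls 1 to 3. Macrophage-like cells held 722, 445, 726 and 677 CPM in the irradiated tumors and 936, 1311 and 2173 CPM in the controls. Every tumor therefore had a higher Spp1 level in its tumor cells than in its macrophages. The difference was 2.27 ± 0.72 on the log2(CPM + 1) scale (SD, n = 7 tumors), a 4.83-fold difference with p = 0.0156 by an exact two-sided sign-flip test, the smallest p that 7 tumors allow, and an adjusted p = 0.0361 over the 60 comparisons of 6 genes between 5 classes.

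The other stromal classes had less Spp1. Fibroblast-like cells averaged 689 ± 462 CPM (SD, n = 7) and endothelial-like cells averaged 224 CPM over 7 tumors, while pericyte-like cells averaged 102 CPM over 6 tumors. Tumor cells exceeded fibroblast-like cells 7.74-fold and endothelial-like cells 27.7-fold in 7 of 7 tumors each (exact adjusted p = 0.0361 for both), and pericyte-like cells 52.6-fold in 6 of 6 tumors (exact adjusted p = 0.0457). Macrophage-like cells exceeded endothelial-like cells 5.74-fold and pericyte-like cells 10.7-fold, also in every tumor. Neighbors lower in the order did not differ beyond their spread, since macrophage-like cells exceeded fibroblast-like cells in 3 of 7 tumors (exact adjusted p = 0.313). Of the 10 pairs of classes, 6 passed for Spp1.

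**Figure D1:**
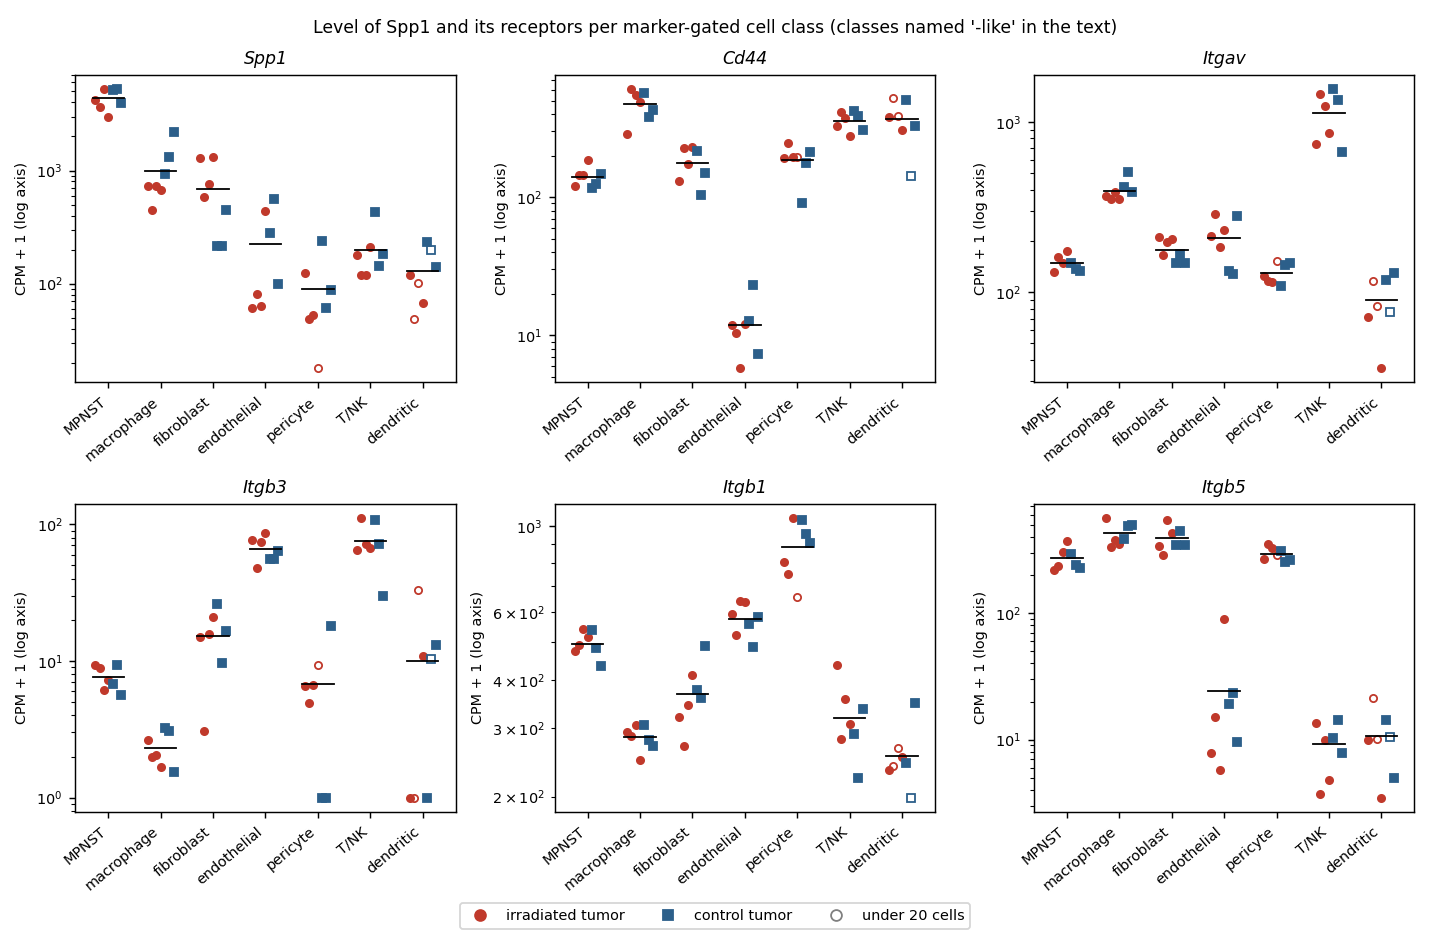
Level of each gene (CPM + 1, log axis) in 7 marker-gated cell classes, with a point per tumor (circles irradiated, squares control, open symbols under 20 cells) and a line at the mean over 7 tumors. Spp1 is highest in MPNST-like cells at 2970 to 5305 CPM, Cd44 is lowest in endothelial-like cells, Itgav is highest in T/NK-like cells and Itgb1 in pericyte-like cells.

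Tumor cells held most Spp1 UMIs. MPNST-like cells held 68% to 89.04% of all Spp1 UMIs of a tumor, macrophage-like cells held 2.15% to 12.1%, and cells outside every gate held 8.53% to 29.6%. Of the UMIs of all genes, MPNST-like cells held 49.4% to 76.4% and macrophage-like cells 10.6% to 35.2%, so these shares also carry the number and depth of the cells. The share in tumor cells averaged 83.6% ± 6.7 in irradiated and 75.7% ± 6.74 in control tumors (SD, n = 4 and 3), which an exact permutation test over the 35 splits of the tumors did not separate (p = 0.2, smallest possible p = 0.0286). The share in macrophage-like cells averaged 5.27% ± 4.63 and 5.22% ± 3.37 (exact p = 0.971). With the 5494 ungated cells left out of the total, the difference between groups in tumor cells was -0.0682 percentage points in place of 7.98.

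**Figure D2:**
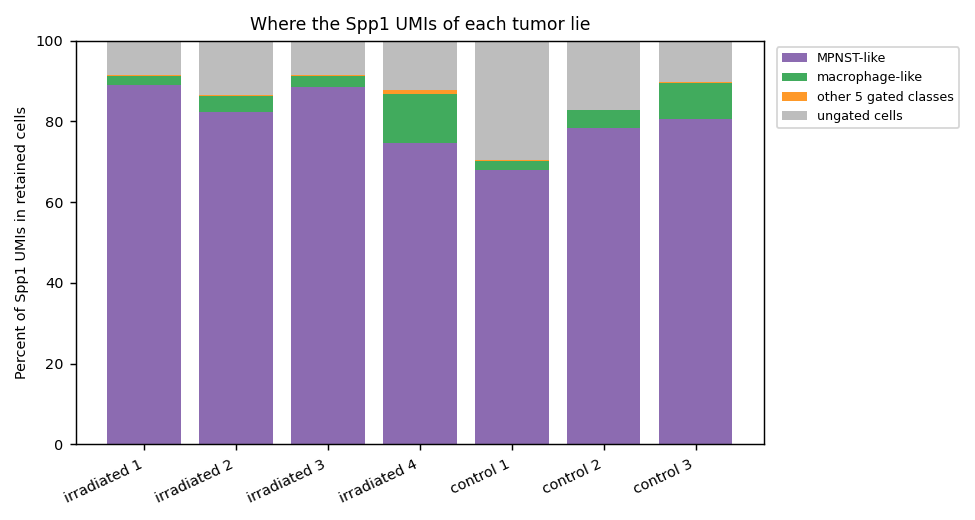
Percent of the Spp1 UMIs of retained cells that lies in MPNST-like, macrophage-like, other gated and ungated cells, with a bar per tumor. MPNST-like cells hold 68% to 89.04% of the UMIs in each of the 7 tumors.

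Spp1 was found in nearly all tumor cells, at uneven levels. With each cell thinned to 2000 UMIs, 89.2% to 94.1% of MPNST-like cells had an Spp1 UMI (90.5% ± 1.78 in irradiated, 92.0% ± 2.05 in control tumors, SD). The median tumor cell had 19.9 to 27.4 Spp1 UMIs per 10000, and the most loaded 10% of cells held 40.3% to 53.7% of the transcript. In irradiated 3, 1 cell held 6084 Spp1 UMIs. Among the tumor cells, the cartilage-type subset stood highest. These cells had at least 2 UMI-positive genes among Col2a1, Acan, Col9a1, Matn1, Comp and Chad, which encode cartilage matrix proteins, and they made up 1.03% to 12.7% of tumor cells. Irradiated 4 had 8 such cells and was left out. In the other 6 tumors they averaged 8440 CPM of Spp1 against 4219 CPM in the remaining tumor cells, 1.91-fold higher in 6 of 6 tumors (log2 difference 0.93 ± 0.42, SD; exact p = 0.0312, adjusted p = 0.0417 over 24 comparisons).

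Tumor cells with hypoxia genes such as Bnip3 and Slc2a1 also had more Spp1, at 4553 against 3421 CPM, 1.33-fold higher in 7 of 7 tumors (exact p = 0.0156, adjusted p = 0.0375). Cycling tumor cells averaged 3923 CPM against 4711 CPM outside the cycle and were lower in 5 of 7 tumors, and interferon-type tumor cells averaged 4079 against 4472 CPM, also lower in 5 of 7. Neither of these differences passed (exact adjusted p = 0.075 for both). Cells inside a subset were deeper than those outside, by a median ratio of 1.08 in UMIs per cell for the cartilage type and 2.01 for the hypoxia type. The part of depth in these differences was not tested beyond the scaling to CPM.

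Irradiated and control tumor cells overlapped in Spp1. The edgeR quasi-likelihood test gave a log2 fold change of -0.28 ± 0.23 (SE; irradiated against control, adjusted p = 1.00 over 17407 genes). In these cells 0% of all genes passed an adjusted p of 0.05, and 2.36% had groups that did not overlap in either direction. None of the 6 genes had non-overlapping groups among the tumor cells.

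In macrophage-like cells Spp1 was lower in all 4 irradiated tumors than in all 3 controls. Irradiated tumors averaged 643 ± 133 CPM there and control tumors 1473 ± 634 CPM (SD, n = 4 and 3), with the highest irradiated tumor at 726 and the lowest control at 936 CPM. The edgeR test gave a log2 fold change of -1.23 ± 0.30 (SE) with an unadjusted p = 0.00362, which placed Spp1 at rank 16 of 12770 genes, and an adjusted p = 0.846. The difference therefore did not pass over all genes. Groups did not overlap for 5.05% of the genes in macrophage-like cells and 0% passed. The exact permutation test of this value alone gave p = 0.0286, the smallest possible over 35 splits.

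The direction was the same within both technical sets, with a log2(CPM + 1) difference of -1.22 in set 1 and -0.63 in set 2. Each value rests on 1 tumor on 1 side, irradiated 1 in set 1 and control 1 in set 2. The sets were derived from measures of the libraries and are not a labeled batch. Without control 3, the tumor with the highest level, the edgeR value was -0.84, the smallest with any 1 tumor left out. Without the cell with most Spp1 in each tumor, the log2 difference was -1.17 against -1.14 with it. The groups also differed in the share of positive cells, since 37.1% ± 6.35 of macrophage-like cells had an Spp1 UMI in irradiated tumors and 59.4% ± 4.88 in controls after thinning to 2000 UMIs (SD). The irradiated tumors lay between 28.2% and 42.4% and the controls between 53.8% and 62.2% (exact p = 0.0286, adjusted p = 0.286 over 30 comparisons). The share was lower in irradiated tumors in endothelial-like cells too, at 12.3% ± 1.16 against 27.4% ± 15.0 (SD) with non-overlapping groups and the same exact p and adjusted p. In pericyte-like cells it was 11.3% ± 1.3 against 23.97% ± 13.9 (SD, n = 3 and 3), with overlapping groups (exact p = 0.2). The effect of irradiation on Spp1 in macrophage-like against MPNST-like cells differed by -0.88 on the log2 scale, which did not pass (exact p = 0.114, adjusted p = 0.411 over 18 comparisons).

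T/NK-like cells served as a reference for Spp1 UMIs in cells other than tumor cells and macrophages. They held 177, 119, 119 and 210 CPM in irradiated tumors and 432, 141 and 183 CPM in controls, below the macrophage-like cells of the same tumor in each of the 7 tumors. These levels were uneven over cells, since the most loaded 10% of T/NK-like cells held 44.05% (control 2) to 91.97% (irradiated 4) of the class's Spp1. The largest count in 1 cell ran from 2 UMIs in control 2 to 105 in irradiated 4. After thinning, 8.88% to 23.8% of T/NK-like cells in irradiated and 21.8% to 52.5% in control tumors had an Spp1 UMI, so the share in this reference class was also higher on average in controls, with overlapping groups. Macrophage-like cells of each tumor exceeded it. Dendritic-like cells, the other reference class, held 118, 47.7, 101 and 66.9 CPM of Spp1 in irradiated tumors. In controls they held 234, 198 and 140 CPM, so the groups did not overlap in this class. It numbered only 13 to 36 cells per tumor, and its difference was not tested. Its share with an Spp1 UMI after thinning was 9.27% to 21.4% in irradiated and 13.3% to 40.4% in control tumors, with overlap. A second measure used Postn, the gene for the matrix protein periostin, made by tumor cells and fibroblasts. In macrophage-like cells Postn stood at 0.612% to 1.2% of its level in tumor cells in irradiated and 1.17% to 2.65% in control tumors. Tumor RNA at that rate would carry 21.2 to 135.6 CPM of Spp1, which is 2.12% to 14.5% of the Spp1 measured in macrophage-like cells. With that part subtracted, irradiated tumors averaged 607 ± 123 CPM and controls 1391 ± 675 CPM (SD), without overlap. The same subtraction with Tnc, the gene for tenascin C, left 611 and 1391 CPM. The Postn rate accounted for only 10.3% to 40.07% of the Spp1 in T/NK-like cells. Whether the remaining Spp1 there was their own transcript or came from other cells was not tested. With the whole T/NK-like level subtracted, the macrophage-like cells of irradiated tumors kept 545, 327, 607 and 467 CPM and those of controls kept 504, 1170 and 1989 CPM. Control 1 then lay below irradiated 1 and 3, the groups overlapped, and the log2 difference of -1.15 had an exact p = 0.0857. These subtractions were chosen after seeing the data, and the part of RNA from other cells in the macrophage difference was not settled by them.

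**Figure D3:**
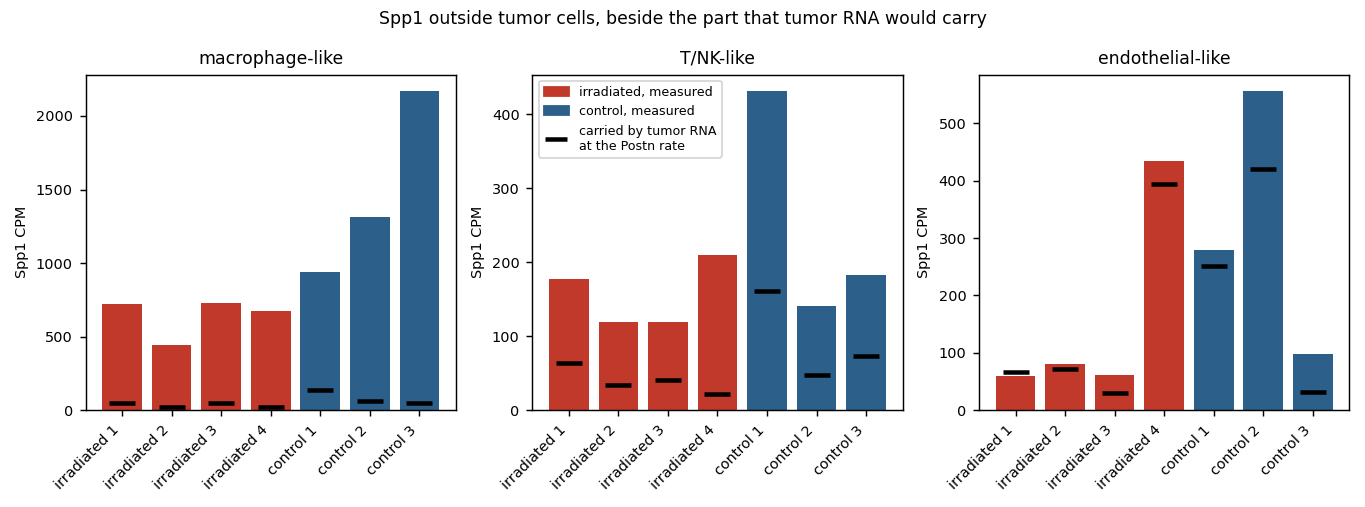
Spp1 (CPM, bars) in macrophage-like, T/NK-like and endothelial-like cells of each tumor, beside the Spp1 that tumor RNA would carry at the rate given by Postn (black marks). The marks reach 2.12% to 14.5% of the bar in macrophage-like cells and 32.6% to 111.6% in endothelial-like cells.

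Macrophage Spp1 was unevenly spread over cells. The most loaded 10% of macrophage-like cells held 56.4% to 72.9% of the class's Spp1, and the median cell had 0.851 to 6.01 UMIs per 10000. Monocyte-like macrophages, positive for genes such as Ly6c2 and Ccr2, averaged 1369 CPM against 914 CPM in the remaining macrophages, and inflammatory macrophages, positive for genes such as Chil3 and Clec4e, averaged 1208 against 894 CPM. Both were higher in 6 of 7 tumors without passing (exact p = 0.0312, adjusted p = 0.0625 over 42 comparisons). Cycling macrophages averaged 836 against 1038 CPM and were lower in 7 of 7 tumors (log2 difference -0.38 ± 0.28, SD; exact adjusted p = 0.0437), the only 1 of 7 macrophage subsets that passed for Spp1. Cycling macrophages were deeper than the remainder, by a median ratio of 1.73 in UMIs per cell. Over the macrophage subsets this ratio ran from 1.02 (monocyte-like) to 1.79 (osteoclast-like). The part of depth in the macrophage differences was not tested beyond the scaling to CPM.

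Mrc1-type macrophages, positive for genes of tissue-resident cells such as Mrc1 and Folr2, made up 60.95% to 85.4% of macrophage-like cells. They held 71.2% to 94.7% of macrophage Spp1 UMIs and were deeper than the remainder, by a median ratio of 1.65 in UMIs per cell. Their Spp1 level did not differ from that of the remainder, at 986 against 1011 CPM (exact adjusted p = 0.568). Osteoclast-like macrophages, positive for genes such as Acp5 and Ctsk, had 1312 against 1288 CPM in the 4 tumors with 20 or more of them, where the exact test cannot go below p = 0.125. The lower Spp1 of irradiated tumors was found inside and outside most subsets. Mrc1-type cells averaged 604 ± 156 CPM in irradiated tumors against 1496 ± 744 CPM in controls (SD). In cycling cells it was 490 ± 151 and 1298 ± 536 CPM, and in monocyte-like cells 1146 ± 473 and 1666 ± 457 CPM, where the groups overlapped.

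**Figure D4:**
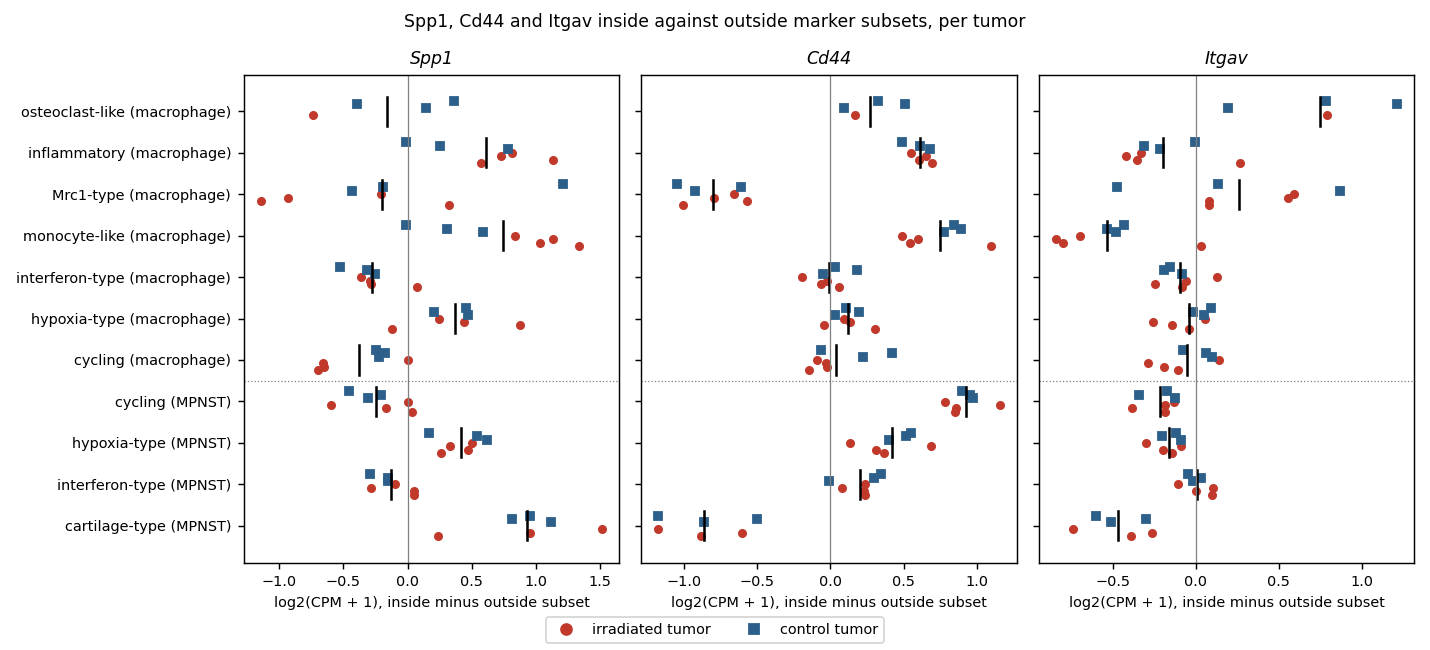
Difference in log2(CPM + 1) between cells inside and outside each marker subset of macrophage-like and MPNST-like cells, with a point per tumor with at least 20 cells on both sides and a line at the mean. Spp1 lies above 0 in 6 of 6 tumors for cartilage-type and 7 of 7 for hypoxia-type MPNST-like cells, and Cd44 lies below 0 in 7 of 7 tumors for Mrc1-type macrophage-like cells.

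In fibroblast-like cells Spp1 stood at 1297, 578, 763 and 1309 CPM in the irradiated tumors and 213, 214 and 448 CPM in the controls. The effect in macrophage-like against fibroblast-like cells differed by -2.90 on the log2 scale, which did not pass (exact p = 0.0286, adjusted p = 0.171 over 18 comparisons). The groups did not overlap, as for 5.06% of genes in this class, of which 0% passed. The edgeR log2 fold change was 1.72 ± 0.42 (SE, unadjusted p = 0.00197, adjusted p = 0.954 over 7019 genes). The class held 20 to 76 cells per tumor and carried MPNST-like markers at 2852 to 4441 CPM, against 6769 to 8190 CPM in MPNST-like cells. The part of these markers in the result was not tested. A single cell held 773 of 831 Spp1 UMIs in irradiated 1, 161 of 280 in irradiated 2, 267 of 310 in irradiated 3 and 230 of 458 in irradiated 4. In the controls the top cell held 9 of 68, 52 of 147 and 103 of 232 UMIs. Without that cell the irradiated tumors stood at 90.5, 245.8, 105.9 and 651.6 CPM and the controls at 184.9, 138.2 and 249 CPM, which overlapped (log2 difference 0.10, exact p = 0.971). The share of fibroblast-like cells with an Spp1 UMI after thinning was 21.8% ± 11.3 in irradiated and 25.5% ± 8.91 in control tumors (SD).

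Spp1 in endothelial-like cells varied between tumors. The levels were 59.7, 79.8, 61.9 and 434.5 CPM in irradiated and 279, 557 and 97.9 CPM in control tumors. The most loaded 10% of cells held 91.6% of the Spp1 UMIs in control 2 and 96.9% in irradiated 4, with 273 and 117 UMIs in the top cell. In the other tumors these cells held 35.5% to 82.35%. Tumor RNA at the Postn rate would carry 66.6, 71.9, 29.5 and 394 CPM in the irradiated and 252, 420 and 31.9 CPM in the control tumors, so the 3 tumors with the most Spp1 were those with the most Postn. The Tnc rate would give 93.6% to 1565% of the Spp1 measured, more than was there in 6 of 7 tumors, so a reference gene can also be expressed by the class itself and neither rate is a measured background. The MPNST-like markers summed to 1136 CPM in endothelial-like cells of irradiated 4, against 206.5 to 661.4 CPM in the other 6 tumors. The edgeR log2 fold change was -0.97 ± 0.97 (SE, adjusted p = 1.00). In this class 4.25% of genes did not overlap between groups and 0% passed. Pericyte-like cells stood at 47.5 to 238.4 CPM, below the T/NK-like cells of the same tumor in each of the 6 tumors.

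Cd44, the hyaluronan receptor, was highest of the 5 compared classes in macrophage-like cells, with 285, 610, 548 and 485 CPM in irradiated tumors and 569, 377 and 424 CPM in controls. The groups overlapped. The level exceeded that of MPNST-like cells, at 116 to 185 CPM, and of fibroblast-like cells, at 103 to 229 CPM, in 7 of 7 tumors (2.71-fold for fibroblast-like cells; exact adjusted p = 0.0361 for both). Endothelial-like cells were lowest at 4.76 to 22.2 CPM, 12.7-fold below MPNST-like cells in 7 of 7 tumors (exact adjusted p = 0.0361). T/NK-like cells, for which CD44 is an activation and homing molecule, held 276 to 418 CPM. Between these ends, pericyte-like and fibroblast-like cells did not differ (exact adjusted p = 0.625), and neither did fibroblast-like and MPNST-like cells (exact adjusted p = 0.0957).

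Cd44 differed between tumor cell subsets. Cycling tumor cells averaged 191 CPM against 101 CPM outside the cycle, 1.90-fold higher in 7 of 7 tumors, and cartilage-type tumor cells averaged 76.1 against 138 CPM, lower in 6 of 6 (exact adjusted p = 0.0375 and 0.0417). Cartilage-type cells thus had the most Spp1 and the least Cd44 of the tumor subsets. In macrophage-like cells Cd44 was higher in monocyte-like (700 against 421 CPM) and inflammatory cells (617 against 403 CPM) and lower in Mrc1-type cells (425 against 736 CPM), each in 7 of 7 tumors (exact adjusted p = 0.0437). Between irradiated and control tumors the edgeR log2 fold change was 0.12 ± 0.17 in MPNST-like and 0.05 ± 0.25 in macrophage-like cells (SE, adjusted p = 1.00 and 0.97).

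Itgav, the alpha v chain that the beta chains of this set share, was highest among the 5 compared classes in macrophage-like cells. It stood there at 367, 354, 386 and 352 CPM in irradiated and 416, 504 and 385 CPM in control tumors. It exceeded endothelial-like cells (128 to 286 CPM) 1.98-fold and MPNST-like cells (131 to 173 CPM) in 7 of 7 tumors (exact adjusted p = 0.0361 for both). T/NK-like cells, which were not part of these comparisons, held more, at 662 to 1572 CPM. Fibroblast-like and endothelial-like cells did not differ (exact adjusted p = 0.42), and neither did MPNST-like and pericyte-like cells (exact adjusted p = 0.212).

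After scaling, Itgav in macrophage-like cells was lower in all irradiated than in all control tumors, with an edgeR value of -0.29 ± 0.11 on the log2 scale (SE, unadjusted p = 0.0306, adjusted p = 0.846). Without that scaling irradiated 3 at 385.7 CPM lay just above control 3 at 385.3 CPM. In fibroblast-like cells the log2 fold change was 0.31 ± 0.21 (SE, adjusted p = 0.954), with non-overlapping groups after scaling. In MPNST-like cells it was 0.09 ± 0.11 (SE, adjusted p = 1.00). Among tumor cells, Itgav was lower in cartilage-type (106 against 146 CPM, 6 of 6 tumors), cycling (134 against 156 CPM) and hypoxia-type cells (144 against 162 CPM, 7 of 7 tumors each; exact adjusted p = 0.0417, 0.0375 and 0.0375). Of the members, 2 of 6 had non-overlapping groups in macrophage-like cells, Spp1 and Itgav, and 2 of 5 tested had them in fibroblast-like cells, the same genes, where 5.05% and 5.06% of all genes tested did.

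Itgb3, the beta 3 chain of the vitronectin receptor of platelets, osteoclasts and endothelium, had its lowest mean in macrophage-like cells, which did not differ from pericyte-like cells (exact adjusted p = 0.445). They held 0.54 to 2.25 CPM, from 8 to 35 UMIs per tumor. Endothelial-like cells held 46.9 to 84.7 CPM and exceeded fibroblast-like cells 4.96-fold and MPNST-like cells (4.64 to 8.38 CPM) in 7 of 7 tumors (exact adjusted p = 0.0361 for both). T/NK-like cells held 28.9 to 110.6 CPM. In pericyte-like cells, 0 UMIs were found in controls 1 and 2, which allows up to 9.29 and 16.5 CPM. Cartilage-type tumor cells had 2.32-fold more Itgb3 than the remaining tumor cells in 6 of 6 tumors and cycling tumor cells less in 7 of 7 (exact adjusted p = 0.0417 and 0.0375). The osteoclast-like macrophages averaged 4.71-fold more, higher in 3 of 4 tumors, too few for the test to pass. The gene was not tested between groups in fibroblast-like cells because of its low counts, and its edgeR log2 fold change was -0.62 ± 0.50 in macrophage-like cells (SE, adjusted p = 0.853).

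Itgb1, the beta 1 chain shared by most receptors for collagen, laminin and fibronectin, was found at 247 CPM or more in each of the 5 classes of each tumor, and all 10 pairs of classes differed. Pericyte-like cells held 748 to 1048 CPM in the 6 tumors with 20 or more of them, 1.62-fold more than endothelial-like cells (487 to 638 CPM) in 6 of 6 (exact adjusted p = 0.0457). Next came MPNST-like cells at 433 to 542 CPM, fibroblast-like cells at 268.5 to 488 CPM and macrophage-like cells at 247 to 306 CPM. Its edgeR log2 fold change lay between -0.31 and 0.12 in the 4 classes fitted, with overlapping groups in each (adjusted p of 0.946 or more). Macrophages of the Mrc1 type held 1.33-fold more and monocyte-like macrophages 0.784 of the level of the remainder, both in the same direction in 7 of 7 tumors (exact adjusted p = 0.0437).

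Itgb5, the beta 5 chain of a vitronectin receptor found on macrophages and mesenchymal cells, stood at similar levels in macrophage-like (331 to 567 CPM) and fibroblast-like cells (287 to 542 CPM), which did not differ (exact adjusted p = 0.42). Pericyte-like cells averaged 294 CPM and MPNST-like cells 270 CPM. Endothelial-like cells held 4.76 to 89.1 CPM, 16.7-fold less than MPNST-like cells in 7 of 7 tumors (exact adjusted p = 0.0361), and T/NK-like cells held 2.7 to 13.4 CPM. It was higher in Mrc1-type macrophages (1.51-fold) and lower in inflammatory (0.80 of the remainder), monocyte-like (0.764), interferon-type (0.772), hypoxia-type (0.868) and cycling cells (0.794), each in 7 of 7 tumors (exact adjusted p = 0.0437). In tumor cells it was lower in cycling (0.567) and hypoxia-type cells (0.719) in 7 of 7 tumors and in cartilage-type cells (0.681) in 6 of 6 (exact adjusted p = 0.0375, 0.0375 and 0.0417). The edgeR log2 fold change was 0.11 ± 0.16 in MPNST-like and -0.20 ± 0.21 in macrophage-like cells (SE, adjusted p = 1.00 and 0.867).

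None of the pathway genes measured beside the members passed between irradiated and control tumors in any of the 4 classes fitted. The 6 partner integrin chains had a median log2 fold change of 0.00 in MPNST-like cells, where the median of all genes was 0.01, with Itgb6 at 0.75, Itga4 at -0.50 and Itga8 at 0.26. Itgb6 and Itga4 were low there, at 0.9175 and 1.454 CPM in irradiated and 0.5209 and 2.064 CPM in control tumors. By level, Itgb8, whose product pairs with alpha v, averaged 74.9 CPM in tumor cells and 0.49 CPM in macrophage-like cells, and Itga4 and Itga9, alpha chains of other osteopontin receptors, averaged 66.8 and 155 CPM in macrophages against 1.7 and 7.51 CPM in tumor cells. Among macrophages 4 of the 6 could be tested, with Itga5 at 0.23, Itga8 at -0.08 and Itga9 at -0.07. The related bone matrix genes Ibsp and Dmp1 averaged 4.53 and 4.51 CPM in tumor cells, with log2 fold changes of -1.77 ± 1.97 and -0.42 ± 0.47 (SE).

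Of 7 other ligands of the same integrins, 6 were tested in macrophage-like cells, with a median log2 fold change of -0.67 against -0.00 for all genes. Fn1, the gene for fibronectin, was at -0.88 ± 0.32 (SE, edgeR unadjusted p = 0.0264, adjusted p = 0.846), the only 1 of the 6 with non-overlapping groups. Tnc and Postn were at -1.19 and -1.03, from levels of 2.85 to 37.2 CPM per tumor, against mean levels of 632 CPM for Tnc and 1253 CPM for Postn in tumor cells. Both were used above as measures of tumor RNA in macrophage-like cells. Fbn1 and Mfge8 averaged 2.41 and 7.21 CPM in macrophage-like cells, against 247 and 84.5 CPM in tumor cells. Fn1 and Thbs1 were higher in macrophage-like cells, at 646 and 295 CPM. The part of RNA from other cells in the median was not tested. In MPNST-like cells Thbs1 was at -0.42, Fn1 at -0.24 and Mfge8 at -0.10. Of 10 genes often found beside Spp1 in tumor macrophages, 1 had non-overlapping groups in macrophage-like cells, again Fn1, with Arg1 at 0.94 and Cd9 at -0.72 (SE 0.55 and 0.25). In MPNST-like cells 1 of the 10 had non-overlapping groups, Trem2 at -0.74 (edgeR unadjusted p = 0.0139, adjusted p = 1.00), with Fabp5 at -0.37 and Arg1 at -0.35. Trem2 averaged only 1.62 CPM in irradiated and 2.72 CPM in control tumor cells, against 582 CPM in macrophage-like cells. Arg1 averaged 0.281 and 0.347 CPM in these tumor cells, so both values lie near the floor. Over all genes tested the groups did not overlap for 5.05% (macrophage-like) and 2.36% (MPNST-like).

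Of the factors known to act on Spp1, Runx2 averaged 681 CPM in tumor cells, 361 CPM in fibroblast-like and 44.9 CPM in macrophage-like cells. Mitf, a factor of osteoclasts and macrophages, averaged 227 CPM in macrophage-like and 159 CPM in tumor cells. None of the 7 factors had non-overlapping groups in these 2 classes, and the largest log2 fold changes were Fos at -0.57, Mitf at 0.34 and Jun at -0.18 in MPNST-like cells and Nfatc1 at -0.31, Hif1a at 0.31 and Jun at -0.15 in macrophage-like cells. The 10 focal adhesion genes had medians of 0.00 and 0.01 in these classes, with Fermt3 at -0.30, Bcar1 at 0.20 and Src at 0.17 in MPNST-like and Fermt2 at -1.16, Bcar1 at -0.66 and Tln1 at -0.10 in macrophage-like cells. Fermt2 and Bcar1 were near the floor in macrophage-like cells, at 0.616 and 0.819 CPM in irradiated and 1.335 and 1.281 CPM in control tumors. The genes for hyaluronan turnover were at -0.32 (Has1), 0.32 (Hyal1) and 0.26 (Has3) in MPNST-like cells and at 0.18 (Hyal1) and -0.04 (Hyal2) in macrophage-like cells. The proteases known to cut osteopontin were at 0.78 (Mmp12), -0.33 (Mmp3) and -0.05 (Mmp9) in MPNST-like and at -1.45 (Mmp9) and 0.46 (Mmp12) in macrophage-like cells. Mmp12 averaged 0.4715 CPM in irradiated and 0.271 CPM in control tumors in MPNST-like cells.

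Over the 35 class-by-tumor values, the genes whose pattern was most like that of Spp1 were Ank (r = 0.839), Rgmb (r = 0.821), Nrg1 (r = 0.811), Tns3 (r = 0.807) and Ptgs2 (r = 0.805). These points share their 7 libraries, include the 12 pericyte-like cells of irradiated 4 and are given as a description. Ank, which exports pyrophosphate and acts in mineralization, averaged 750 CPM in tumor cells and 58.1 CPM in macrophage-like cells. The receptors followed Spp1 less, with r of 0.388 for Itgb5, 0.32 for Cd44, 0.142 for Itgav, -0.242 for Itgb3 and -0.507 for Itgb1.

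Across the cells within a tumor, the genes most like Spp1 in macrophage-like cells were Fn1 (median r = 0.252 over 7 tumors), Cd9 (0.227), S100a6 (0.214), Pdpn (0.193) and Ctsl (0.193). These correlations are weak, and S100a6 ranged from -0.117 to 0.234. In MPNST-like cells they were Timp1 (0.458), an inhibitor of matrix proteases, Capg (0.378), Fth1 (0.359), S100a4 (0.334) and Rplp0 (0.322). The 5 receptors lay between -0.0474 and 0.0339 in macrophage-like and between -0.115 and 0.112 for tumor cells. Depth of the cell correlated with Spp1 at 0.0292 for macrophages and 0.128 for tumor cells.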

How the data were processed

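For each of 7 libraries the authors deposited a matrix of UMI counts by gene and cell, and the file headers name Cell Ranger 8.0.0. The submitters' processing notes name Cell Ranger, Seurat 4.4 and mm10, and no other values were used here. Whether intronic reads were counted is not given in the sources used here. Group and replicate number came from the sample labels, which name the tumors biological replicates. The members, marker lists and pathway lists were chosen with earlier results of these data known.

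Cells were kept if log10 UMIs, log10 genes, mitochondrial share and ribosomal share all lay within 3 median absolute deviations of the library's median. Cells were gated on the number of markers found, with upper limits on markers of the other classes in place of a doublet caller. Macrophage-like cells needed 9 of 15 markers and at most 3 of MPNST-like. MPNST-like cells needed 6 of 18, at most 6 of macrophage-like and no Xist. Fibroblast-like cells needed 6 of 11 and 2 Xist UMIs, where the design asked for 1. Endothelial-like cells needed 4 of 10 and pericyte-like cells 4 of 8. Thresholds were set after marker distributions and cell numbers were seen. Libraries shared 3 to 19 cell barcodes per pair, at most 0.397% of the smaller library. Counts of a 3′ assay were not compared between genes.

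UMIs were summed per tumor and class and tested with edgeR 4.0.16 (R 4.3.3; quasi-likelihood, filterByExpr, TMM), with Benjamini-Hochberg adjustment over all genes tested and a threshold of 0.05. Adjusted p-values of members were taken over all genes. Tested on simulated counts in which 200 genes differed 2 log2 units, the fit recovered 81% in MPNST-like, 91.5% in macrophage-like, 76.5% in fibroblast-like and 85% in endothelial-like cells. These counts were drawn with the dispersions estimated from the same data. Every member differed by less than 2 log2 units in the main fits, and recovery at smaller sizes was not simulated. Classes were compared within tumors on log2(CPM + 1) by two-sided exact sign-flip tests (20 or more cells per tumor). Groups were compared by two-sided exact permutation over 35 splits. Subsets needed at least 2 markers. Shares of cells used the expected share after thinning to 2000 UMIs, leaving out shallower cells. An upper limit for 0 UMIs is 3 UMIs of the class total and covers counting error only. Genes named were the members, the 3 largest log2 fold changes of each pathway list in MPNST-like and macrophage-like cells and the 5 genes most like Spp1. Genes whose levels are given to describe a list, and marker genes, were named beyond that rule. Pairs of tumors with the same replicate number did not deviate together (r from -0.656 to 0.218), so no pairing was used. Subtracting tumor RNA or the T/NK-like level and leaving out the cell with most Spp1 were alternatives chosen after seeing the data.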

Additional observations from a re-analysis of the deposited data

Results flagged for a closer look

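In a group of 4 irradiated tumors, irradiated 4 stood apart in endothelial-like cells for Spp1, at 434.5 CPM against 59.7 to 79.8 CPM in the other irradiated tumors, and for Itgb5, at 89.13 CPM against 4.76 to 14.1 CPM. Both are gaps of more than 0.829 of the group's range (Dixon's test). The class held 33 cells in this tumor, its MPNST-like markers summed to 1136 CPM, and 96.9% of its Spp1 UMIs lay in the top 10% of cells. The part of tumor cells or tumor RNA in these values was not tested further. Of 24 such groups examined, chance would place about 1 in 20 apart.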

How the results depend on the processing

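Spp1 in macrophage-like cells stayed lower in irradiated tumors under every alternative run, with adjusted p between 0.105 (DESeq2) and 1, and log2 fold changes from -1.48 (without control 1) to -0.84 (without control 3). The replicate numbers did not pair the tumors. With the replicate block the log2 fold change of Spp1 was -1.21 (macrophage-like) and -0.15 (MPNST-like), and 0 genes were called in each of the 4 classes, with 98 to 221 genes at an unadjusted p under 0.05 by edgeR. With no filter on low counts, edgeR called 66 genes in fibroblast-like cells, Spp1 among them (adjusted p = 0.00137), and 34 in endothelial-like cells, and DESeq2 called 1 in fibroblast-like cells; the cause was not tested. Leaving out 1 tumor gave 0 to 1 genes in fibroblast-like cells, the 1 without control 1.

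Spp1 in MPNST-like cells remained above the other classes. With stricter gates the log2 differences of 2.29 (macrophage-like), 2.92 (fibroblast-like), 4.73 (endothelial-like) and 5.91 (pericyte-like) no longer passed (exact adjusted p = 0.11, 0.294, 0.11 and 0.129). Their unadjusted exact p was 0.0156, 0.25, 0.0312 and 0.0625, with tumors of under 20 cells of a class left out. The value for macrophage-like cells is the smallest p that 7 tumors allow. For pericyte-like cells as a mean over cells, 5.50 did not pass either (exact adjusted p = 0.0521). Without 1 tumor the log2 differences ranged, in the same order, from 2.14 to 2.51, 2.68 to 3.25, 4.52 to 5.13 and 5.53 to 5.98. Their adjusted p reached up to 0.0915, since fewer tumors allow fewer sign flips. The difference in the share of Spp1 UMIs turned with gated cells alone, to -0.0682 points in MPNST-like and -0.22 in macrophage-like cells, and to -0.194 in macrophage-like cells with no cell filter. Without 1 tumor the macrophage-like value ranged from -2.23 to 1.90 points.

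The remaining turns of direction concern values that passed no test. With technical sets in the model, log2 fold changes were -0.0028 (Itgb1) and -0.0138 (Itgb5) in MPNST-like, -0.27 (Cd44) and 0.0137 (Itgb5) in macrophage-like and -0.0200 (Cd44) in fibroblast-like cells. With the replicate block it was -0.0254 (Itgb5) in MPNST-like, -0.00069 (Cd44) and 0.0233 (Itgb1) in macrophage-like, -0.0147 (Itgb5) in fibroblast-like and -1.03 (Itgb5) in endothelial-like cells. Itgb1 in MPNST-like cells was -0.0114 with stricter gates and -0.0123 with no cell filter. Itgav in fibroblast-like less endothelial-like cells was 0.13 as a mean over cells, and Spp1 in osteoclast-like less other macrophages 0.28 with stricter gates. The Spp1 share of cells differed by 0.191 points in MPNST-like cells without thinning and 0.57 points in fibroblast-like cells thinned to 1000 UMIs. Without 1 tumor the log2 fold change in MPNST-like cells ranged from -0.0086 to 0.29 (Cd44), -0.0515 to 0.35 (Itgb3), -0.0161 to 0.0316 (Itgb1) and -0.0162 to 0.163 (Itgb5). In macrophage-like cells it ranged from -0.0859 to 0.23 (Cd44) and -0.0674 to 0.0274 (Itgb1), and for Itgb5 from -0.13 to 0.17 in fibroblast-like and -1.11 to 1.25 in endothelial-like cells. The Spp1 share in fibroblast-like cells ranged from -9.09 to 0.855 points and Spp1 in osteoclast-like cells from -0.33 to 0.0357. Stricter gates left too few fibroblast-like cells for an edgeR fit. Depth limits Itgb3 in macrophage-like cells (8 to 35 UMIs per tumor) and, in endothelial-like cells, Cd44 (2 to 19 UMIs) and Itgb5 (2 to 40 UMIs). Spp1 in macrophage-like cells less the T/NK-like level had an exact p = 0.0857.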
